A study of Homo sapiens with 2 samples.

Results

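The nuclear receptors are a family of transcription factors, described here in liver progenitors made from CyT49, a human embryonic stem cell line. Members were chosen by gene symbol, as 46 listed receptor genes, and 45 of them were matched to a row among the 57158 genes of the table. NR2E3 was not matched and has no value here. By day 2 the cells had become definitive endoderm, the layer that forms gut, liver and pancreas. From then they were grown in suspension for 6 days in RPMI medium with 50 ng/ml BMP4, 10 ng/ml FGF2 and 0.2% FBS, and collected at day 8. All material came from this 1 line, in 2 libraries of 1 group titled as replicates, so the values are levels, and no change with time or treatment could be measured. The growth protocol in the labels names no retinoid, steroid or thyroid hormone, but what the FBS held of these was not measured.

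Nuclear receptors bind DNA through a zinc finger domain, and many are switched by small fat-soluble ligands held in a second domain. Thyroid hormone, retinoic acid, vitamin D, oxysterol, bile acid, fatty acid and drug receptors pair with a retinoid X receptor (RXR), steroid receptors pair with themselves, and orphan receptors such as the COUP-TFs have no settled natural ligand. In liver the family is known for setting lipid, bile acid, glucose and drug metabolism, with HNF4A as a central regulator of hepatocyte genes.

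Levels are given in RPKM, which divides a gene's reads by its length and by the reads of the library, so they compare genes per length. Every value under 0.5 was listed as 0.1, called the floor, and is read as under 0.5 RPKM. Detected means at least 1 RPKM in each library. The values imply 25182071 reads in library 1 and 25263820 in library 2. At that depth a 2000 bp gene at 0.5 RPKM had about 25.2 reads. Between the libraries, the variance over 955 single-exon genes was 1.09 times the counting variance, so they were counted as 1 sample with 2 measurements. Of 16 hepatoblast markers all were detected, from ALB (albumin) at 6.84 and 6.53 RPKM to APOA1 (the main high-density lipoprotein protein) at 2189 and 2186. Of 15 mature hepatocyte markers 5 were detected, the highest being ADH1B at 5.37 RPKM. Of 7 pluripotency markers 1 was detected, DPPA4 at 1.80 and 1.94 RPKM, and the factors POU5F1, NANOG and SOX2 were among the 6 at the floor. None of 7 neural markers was detected, and the endothelial and blood markers CDH5, VWF and PTPRC were at the floor, while 2 of 6 endothelial markers were (EGFL7, 15.4 RPKM, and KDR, 1.61), 2 of 8 blood markers, 2 of 6 cardiac markers, 2 of 8 pancreas and intestine markers and 4 of 8 mesenchyme markers (COL1A1 the highest at 8.29 RPKM). Of 9 trophoblast and yolk sac markers 6 were detected, with CGA, a hormone subunit of trophoblast, at 136 RPKM. Which cells these transcripts came from was not tested, and in bulk RNA fewer cells of a type cannot be told apart from less RNA per cell.

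Of the 45 receptors, 25 were detected, beside 59.8% of 19344 protein-coding genes. The share of receptors, 55.6%, lay close to that background. Another 14 receptors were at the floor in both libraries (31.1%, beside 33.8% of protein-coding genes), and 6 lay between, among them NR1I3, which was above the floor in library 1 only. At 0.5 RPKM or more in both libraries there were 30 receptors (66.7%, beside 65.1% of protein-coding genes), at 5 RPKM or more 13 (28.9%, beside 35.4%), and at 10 RPKM or more 6 (13.3%, beside 20.2%). The median receptor stood at 1.46 RPKM and the median protein-coding gene at 2.42, or 1.30 and 1.78 on the log2(RPKM + 1) scale. Levels were uneven among the receptors, and no like share was worked out for other sets of genes. Whether this unevenness is particular to receptors was therefore not tested. The 5 highest held 60.7% of the summed receptor RPKM, and the 11 receptors of subfamily NR2 held 60.3% of it, beside 17.3% for the 18 of subfamily NR1 and 4.79% for the 8 of subfamily NR3.

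**Figure D1:**
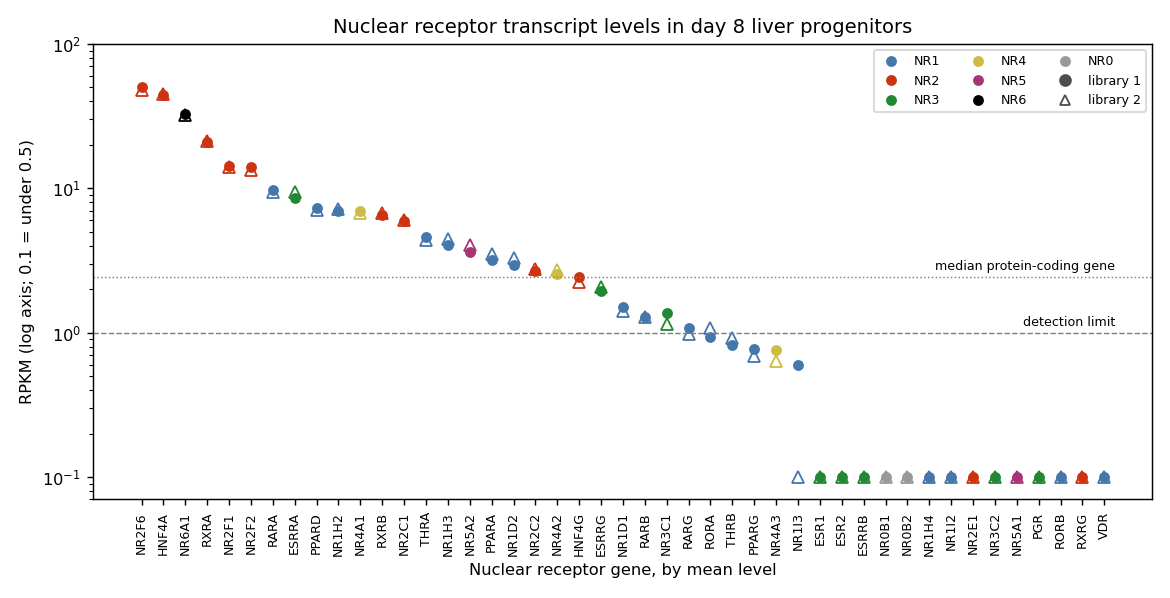
RPKM of 45 nuclear receptor genes on a log axis, ordered by mean level, with filled circles for library 1, open triangles for library 2 and colours for the subfamilies; the dashed line marks the detection limit of 1 RPKM and the dotted line the median protein-coding gene. NR2F6, HNF4A and NR6A1 stand above 30 RPKM in both libraries (lowest value 32.4), and 14 receptors lie at the floor of 0.1 in both.

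The receptor of highest level was NR2F6, a COUP-TF orphan receptor that mostly represses transcription, at 50.7 RPKM in library 1 and 48.0 in library 2. The gene, ENSG00000160113.5, lies on chromosome 19 of GRCh37 (hg19) from 17342692 to 17356728, minus strand, and ranked 611 among protein-coding genes. Its exons share 221 bp with ENSG00000269095, a gene on the same strand listed at 22.6 RPKM in both libraries, so part of its reads may have been split between them. The other COUP-TFs, NR2F1 and NR2F2, orphan receptors of organ and vessel development, were lower. NR2F1 stood at 14.3 and 14.0 RPKM and NR2F2 at 13.9 and 13.5, and NR2F6 exceeded them 3.48-fold and 3.60-fold. Library ranges of NR2F1 and NR2F2 did not overlap, but their levels differed by 1.03-fold and 1.04-fold, less than the usual difference between libraries at that level (SD 0.06 log2). COUP-TFs together held 29.0% of receptor RPKM.

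HNF4A came next in the family, at 44.5 and 44.9 RPKM, and ranked 704 among protein-coding genes. The gene, ENSG00000101076.11, lies on chromosome 20 from 42984339 to 43061485, plus strand. Its relative HNF4G, better known from intestine, stood at 2.42 and 2.23 RPKM, so HNF4A was 18.4-fold higher in library 1 and 20.2-fold in library 2. Of 20 genes listed as HNF4A targets 15 were detected, with a median of 43.9 RPKM. APOA1, the fibrinogen chain FGB (868 RPKM), APOA2 (812) and the carrier TTR (776) were the highest, and GYS2, CYP8B1 and NR1I2 were at the floor. This list holds many abundant liver genes by choice and was written with earlier results of these data known. The other lists were also written with those results known, and some genes, such as APOA1 and FASN, stand in several lists. List counts are to be read beside the 59.8% of protein-coding genes that were detected.

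NR6A1, the germ cell nuclear factor, is an orphan repressor known for silencing POU5F1 as embryonic cells differentiate. It followed HNF4A at 32.7 and 32.4 RPKM and lies on chromosome 9 from 127279554 to 127533590, minus strand. Of 8 genes listed as its targets 7 were at the floor, and PLCD3 stood at 3.29 RPKM. The list holds mostly genes of pluripotent cells (POU5F1 and NANOG, also counted as pluripotency markers) and of germ cells (GDF9, BMP15, PRM1 and PRM2). Whether NR6A1 bears on these levels was not tested. Its nearest receptor neighbour, NR5A1, the regulator of steroid-producing tissue, lies 9.85 kb away on the same strand and was at the floor. The relative of NR5A1, NR5A2 (LRH1, a regulator of bile acid genes and of early embryonic cells), stood at 3.63 and 4.06 RPKM. Of 18 genes listed as NR5A2 targets 7 were detected, with APOA1 and AFP (706 RPKM) the highest, while NR0B2, CYP7A1 and CYP8B1 were at the floor.

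Receptor genes also lie in groups of related members on chromosomes 17 and 3. On chromosome 17, THRA, NR1D1 and RARA span 299 kb, with 4.50, 1.46 and 9.55 RPKM. On chromosome 3, their relatives NR1D2, THRB and RARB span 1653 kb, with 3.10, 0.87 and 1.29 RPKM. The thyroid hormone and retinoic acid receptor genes were thus higher on chromosome 17, and the NR1D gene was higher on chromosome 3, in both libraries. THRA and NR1D1 run toward each other and share 473 bp of exon on opposite strands. The libraries kept strand, but whether the counting used it is not given in the sources used here, so reads in the shared stretch cannot be assigned with certainty.

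**Figure D2:**
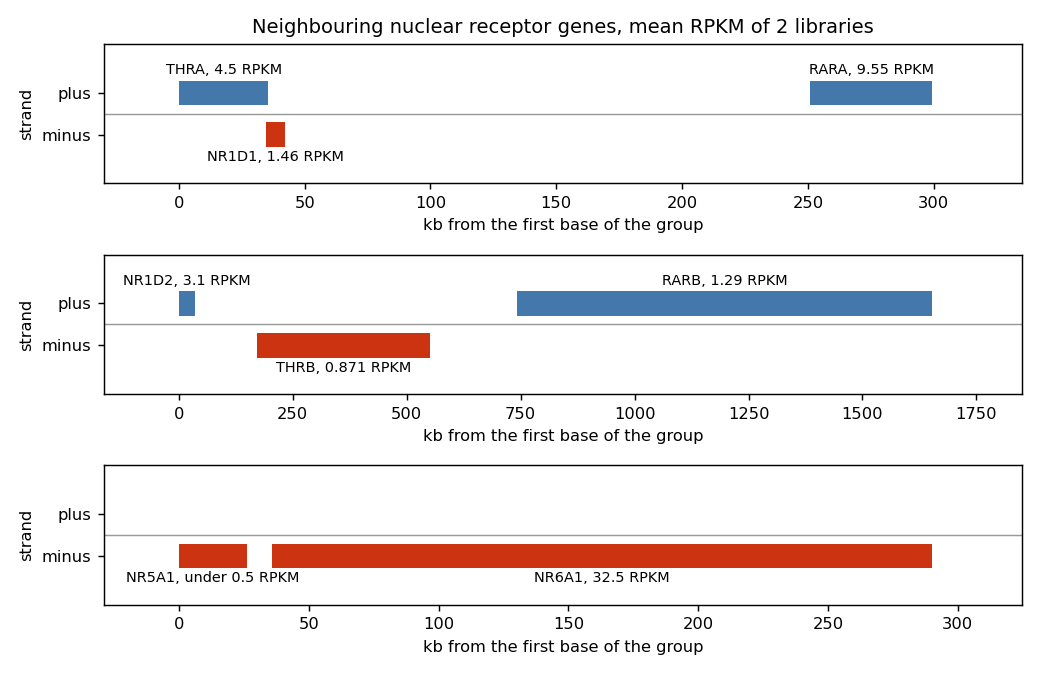
Positions of neighbouring receptor genes in kilobases from the first base of each group, with plus strand genes above the line in blue, minus strand genes below it in red, and each gene's mean RPKM. NR5A1 (under 0.5 RPKM) and NR6A1 (32.5 RPKM) lie 9.85 kb apart, and THRA and NR1D1 overlap at their ends.

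RXRA, the common partner receptor, stood at 21.0 and 21.3 RPKM, below only NR2F6, HNF4A and NR6A1 among the receptors measured. It lies on chromosome 9 from 137208944 to 137332431. RXRB stood at 6.53 and 6.71 RPKM, and RXRG, known from muscle and brain, was at the floor. Exons of RXRB share 361 bp with SLC39A7 on the opposite strand, which stood at 50.5 RPKM. The summed level of the RXRs was 27.9 RPKM, beside 40.6 RPKM for the 14 members of subfamily NR1 that pair with them, a ratio of 0.69.

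Among the retinoic acid receptors, RARA led with 9.67 and 9.44 RPKM. RARB, itself a target of retinoic acid, stood at 1.29 and 1.28, and RARG, a form known from skin, at 1.07 and 0.98, so RARG missed the detection limit in library 2. RARA was 7.48-fold above RARB in library 1 and 7.36-fold in library 2. Of 19 genes of retinoid supply and clearance 9 were detected. The retinol carrier RBP4 stood at 327 RPKM, the retinoic acid carrier CRABP2 at 93.4, the retinal dehydrogenase ALDH1A1 at 90.4 and FABP5 at 24.3. The embryonic retinal dehydrogenases ALDH1A2 and ALDH1A3 were at the floor, and so were the retinoic acid hydroxylases CYP26A1, CYP26B1 and CYP26C1. Of 21 listed retinoic acid targets 9 were detected, among them CRABP2, RARA and DHRS3 (8.11 RPKM), while HOXB1 and CYP26A1, which respond early to retinoic acid, were at the floor.

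Of the thyroid hormone receptors, THRA stood at 4.62 and 4.39 RPKM and THRB, the main form of adult liver, at 0.83 and 0.92, below the detection limit in both. THRA was 5.60-fold higher in library 1 and 4.78-fold in library 2. The hormone carrier TTR stood at 776 RPKM, DIO3, the deiodinase that inactivates the hormone, at 4.50, and DIO1, an activating deiodinase of liver, at 2.21. DIO2 and the carrier SERPINA7 were at the floor. Of 16 listed thyroid hormone targets 6 were detected, with FASN (89.8 RPKM in library 1 and 90.2 in library 2) and NRGN (40.7) the highest and THRSP and HR at the floor.

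The fatty acid receptors were led by PPARD, the broadly expressed form, at 7.34 and 7.12 RPKM. PPARA, the receptor that drives fatty acid oxidation in adult liver, stood at 3.20 and 3.52, and PPARG, the fat cell form, at 0.77 and 0.69. PPARD exceeded PPARA 2.29-fold in library 1 and 2.02-fold in library 2. Of 22 listed PPARA targets 14 were detected (63.6%, beside 59.8% of protein-coding genes), with a median of 3.85 RPKM. The transcription factor CREB3L3 stood at 40.4 RPKM, the oxidation enzymes HADHA at 36.9 and ACADVL at 30.9, while VNN1, CIDEC and CD36 were at the floor. Of 15 genes of fatty acid carriers and ligand enzymes 8 were detected (53.3%, beside 59.8%), led by DBI at 32.4 RPKM and FABP5. The liver carrier FABP1 was just under the detection limit in library 2 (0.98 RPKM).

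The oxysterol receptors NR1H2 (LXR beta, broadly expressed) and NR1H3 (LXR alpha, of liver and macrophages) stood at 6.99 and 7.22 RPKM and at 4.06 and 4.44 RPKM. NR1H2 was higher in both libraries, 1.72-fold in library 1 and 1.63-fold in library 2. Of 20 listed LXR targets 13 were detected (65%, beside 59.8% of protein-coding genes). The highest were APOE (1207 RPKM), APOC1 (227), the desaturase SCD (181) and FASN. The cholesterol exporter ABCA1 stood at 10.0 RPKM, and CETP, ABCG4 and CYP7A1 were at the floor.

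The bile acid receptor NR1H4 was at the floor in both libraries, as was its target NR0B2, a receptor without a DNA-binding domain that represses bile acid synthesis. Of 16 listed NR1H4 targets 1 was detected, APOC2 at 1.33 RPKM. SLC51A stood at 0.73 RPKM, and SLC10A2 and FABP6 were among the 13 at the floor in both libraries. Of 15 enzymes of oxysterol and bile acid ligands 6 were detected. Among them, the bile acid enzyme AKR1D1 stood at 28.3 RPKM and the sterol reductase DHCR7 at 26.7, while CYP46A1, CH25H and BAAT were at the floor.

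The drug receptor NR1I2 was at the floor in both libraries, and NR1I3, the other drug receptor of liver, was listed at 0.60 in library 1 and at the floor in library 2. Exons of NR1I3 share 663 bp with TOMM40L on the opposite strand, which stood at 4.32 RPKM. Of 22 genes listed as targets of these receptors 7 were detected, led by GSTA2 (71.0 RPKM), GSTA1 (26.5), EPHX1 (18.1) and POR (14.7). ABCC3, THRSP and SLCO1B1 were at the floor. VDR, the vitamin D receptor, was at the floor too, and its best known target CYP24A1 was as well. Of 16 listed VDR targets 4 were detected, with IGFBP3 at 33.4, CA2 at 23.2, SPP1 at 17.4 and G0S2 at 8.47 RPKM. Of the 7 genes of vitamin D activation and clearance 3 were, namely the endocytic receptors LRP2 (8.91 RPKM) and CUBN (7.19) and the hydroxylase CYP2R1 (1.65).

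Of the 4 clock receptors measured 2 were detected. NR1D2, a heme-binding repressor, stood at 2.94 and 3.27 RPKM and its relative NR1D1 at 1.52 and 1.40. RORA, an activator at the same sites, stood at 0.93 and 1.08 RPKM, on either side of the detection limit, and RORB was at the floor. Of 15 listed clock genes 9 were detected (60%, beside 59.8% of protein-coding genes). The highest were CRY2 (8.83 RPKM), TEF (6.47), NFIL3 (6.43) and PER1 (6.42), and NPAS2, HLF and BHLHE41 were at the floor. Of 10 genes of heme synthesis and breakdown 9 were detected, led by ALAS1 at 13.5 and UROD at 12.6 RPKM.

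Steroid receptor transcripts were low or at the floor. The glucocorticoid receptor NR3C1 was detected, at 1.38 RPKM in library 1 and 1.15 in library 2, a difference of 18.2% of the mean. The mineralocorticoid receptor NR3C2, the progesterone receptor PGR and the estrogen receptors ESR1 and ESR2 were at the floor in both libraries. Of 21 listed glucocorticoid targets 11 were detected (52.4%, beside 59.8% of protein-coding genes). The highest were ERRFI1 (24.5 RPKM), DUSP1 (16.4), NFKBIA (12.5) and PER1, and SDS, IGFBP1 and TPH2 were at the floor. Of 16 listed estrogen targets 10 were detected (62.5%, beside 59.8% of protein-coding genes), led by the protease CTSD at 73.4 RPKM. Of 21 steroid enzymes 6 were detected. HSD17B4, an enzyme of peroxisomal fatty acid oxidation as well, led at 14.9 RPKM, and HSD11B2, which inactivates cortisol, stood at 5.56. All 12 chaperones of steroid receptors were detected, from FKBP5, itself a glucocorticoid target, at 1.67 RPKM to HSP90AB1 at 504.

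Estrogen-related receptors do not bind estrogen and are known for mitochondrial genes. ESRRA stood at 8.57 RPKM in library 1 and 9.48 in library 2, ESRRG at 1.93 and 2.07, and ESRRB, a factor of the pluripotent state in mouse, at the floor. ESRRA shares 284 bp of exon with TRMT112 on the opposite strand, which stood at 27.9 RPKM. Of 18 listed targets 16 were detected, with the ATP synthase subunit ATP5F1B at 261, COX4I1 at 49.0 and CS at 25.6 RPKM. The immediate early receptors NR4A1, NR4A2 and NR4A3, which are switched on by growth factors and stress, stood at 6.93 and 6.79, at 2.53 and 2.72, and at 0.76 and 0.64 RPKM. Of 12 listed NR4A targets 5 were detected, with SPP1 and GADD45B (6.74 RPKM) the highest. The testicular receptors NR2C1 and NR2C2, broadly expressed orphans, stood at 5.91 and 5.99 RPKM and at 2.69 and 2.74. NR2C2 shares 7157 bp of exon with MRPS25 on the opposite strand, which stood at 11.7 RPKM. NR2E1, a neural stem cell receptor, and NR0B1, a receptor without a DNA-binding domain, were at the floor.

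Genes for the proteins that receptors recruit were mostly detected. Of 21 coactivators 18 were detected, with a median of 6.77 RPKM, and of 18 corepressors 17, with a median of 12.3 RPKM, beside 59.8% and 2.42 RPKM for all protein-coding genes. The arginine methyltransferases PRMT1 (55.1 RPKM) and CARM1 (36.5), the acetyltransferase EP300 (21.3) and MED24 (15.0) were the highest coactivators. The lowest were KAT2B (0.81), PPARGC1A (0.63), a coactivator of fasting liver, and PPARGC1B at the floor. TRIM28 (138 RPKM), KDM1A (54.0), HDAC1 (34.5) and TRIM24 (32.6) were the highest corepressors, and NRIP1 (4.43), LCOR (2.01) and HR (at the floor) the lowest.

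**Figure D3:**
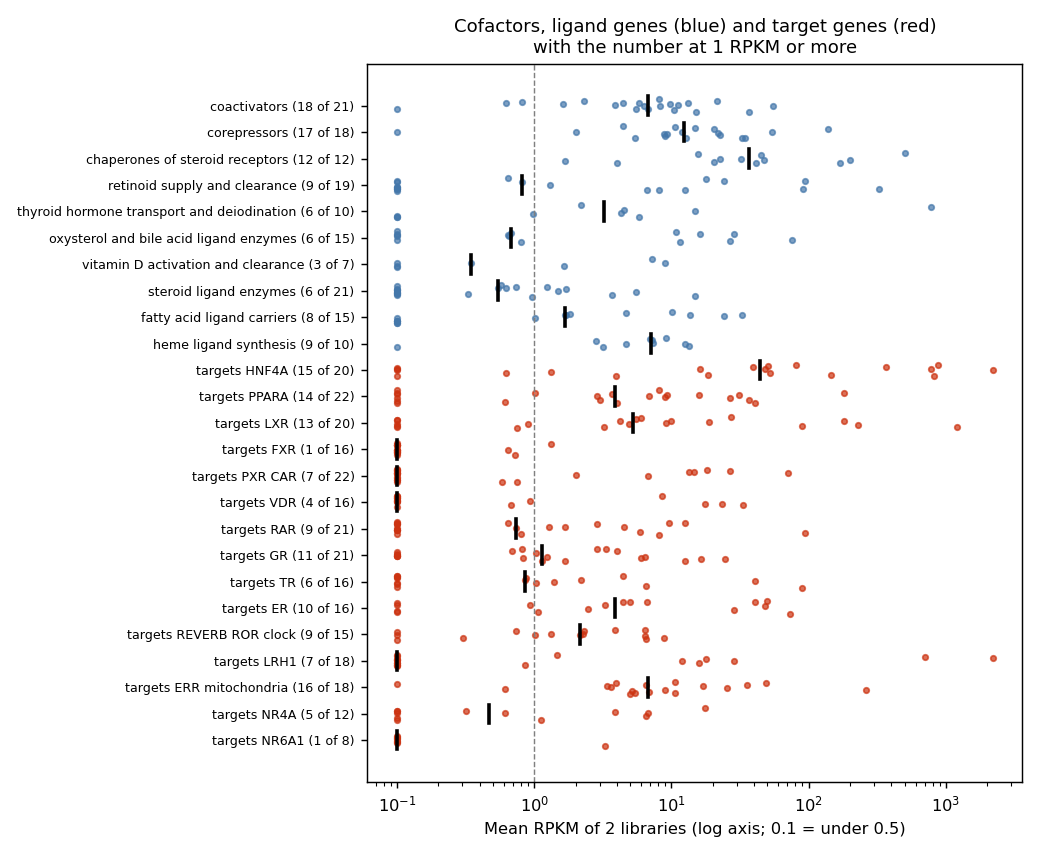
Mean RPKM on a log axis for genes of cofactor and ligand lists (blue) and of listed target genes (red), with a black bar at each list's median and the number detected of the number measured after each name. Points at 0.1 are at the floor. Medians run from the floor, as for targets of NR1H4 (FXR), to 43.9 RPKM for HNF4A targets.

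The libraries gave close values for the receptors. Over the 25 detected receptors the difference between libraries had a median of 3.28% of the mean, beside 3.19% for 11575 detected protein-coding genes. Of the receptors 12 were higher in library 1 and 13 in library 2, beside 5824 and 5751 of those protein-coding genes. Each receptor was also set against all protein-coding genes within a factor of 2 of its level. For none of 30 receptors above the floor in both libraries was the difference larger than in 95% of such genes. NR2F6 came closest, with 94.6% of 1213 genes differing less, followed by ESRRA. In the order of levels, 9 of 29 neighbouring pairs had overlapping library ranges. These were RARA and ESRRA, PPARD and NR1H2, THRA and NR1H3, NR1H3 and NR5A2, PPARA and NR1D2, NR2C2 and NR4A2, RARB and NR3C1, RARG and RORA, and PPARG and NR4A3.

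**Figure D4:**
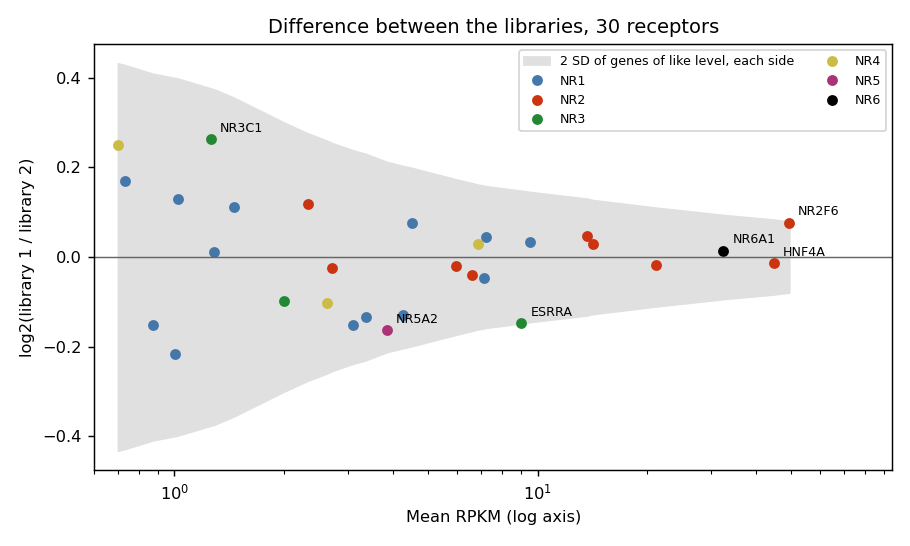
Log2 ratio of library 1 to library 2 for 30 receptors above the floor in both, against mean RPKM on a log axis, coloured by subfamily; the grey band spans 2 SD on each side of 0 for protein-coding genes within a factor of 2 of the level. NR2F6 (0.08) and ESRRA (-0.15) lie near the edges of the band, and the band widens as the level falls.

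Promoter sequence was compared as a property that the choice of members did not use. RefSeq promoters on GRCh38.p14 were matched for 40 receptors, and VDR, HNF4G, NR2F6, NR4A2 and NR0B2 had no entry. The window was the 250 bases before the table's start site, which was the outermost RefSeq start for 32 of the 40. Vertebrate promoters of widely used genes are often rich in CpG, the dinucleotide that DNA methylation targets, and CpG content is given as observed over expected from the base composition. The median was 0.76 in 22 detected receptors and 0.48 in 18 others, beside 0.83 and 0.38 in detected and other protein-coding genes. A value of 0.6 or more was found in 15 of the 22 detected receptors (68.2%) and 8 of the 18 others (44.4%), beside 82.2% of detected and 35.8% of other protein-coding genes. The following windows show the range, 5′ to 3′ on the gene's strand, with each CpG in capitals. HNF4A and NR5A2 are shown as detected genes with few CpG, RXRA as the gene richest in CpG, and NR6A1 with NR5A1 as neighbouring genes of unlike level. Both neighbours run on the minus strand, and their starts lie 290 kb (NR6A1) and 26.2 kb (NR5A1) from the first base of the pair. Their windows therefore lie much farther apart than the gap between the genes.
HNF4A: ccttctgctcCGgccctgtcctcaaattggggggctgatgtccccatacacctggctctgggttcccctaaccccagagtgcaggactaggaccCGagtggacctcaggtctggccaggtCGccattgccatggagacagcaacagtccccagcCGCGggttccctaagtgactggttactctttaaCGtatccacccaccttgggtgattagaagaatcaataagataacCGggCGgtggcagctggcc
NR5A2: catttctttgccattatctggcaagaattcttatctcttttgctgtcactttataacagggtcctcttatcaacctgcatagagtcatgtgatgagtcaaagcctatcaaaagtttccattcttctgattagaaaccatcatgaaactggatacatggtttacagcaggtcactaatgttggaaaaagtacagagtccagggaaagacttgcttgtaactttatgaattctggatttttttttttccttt
RXRA: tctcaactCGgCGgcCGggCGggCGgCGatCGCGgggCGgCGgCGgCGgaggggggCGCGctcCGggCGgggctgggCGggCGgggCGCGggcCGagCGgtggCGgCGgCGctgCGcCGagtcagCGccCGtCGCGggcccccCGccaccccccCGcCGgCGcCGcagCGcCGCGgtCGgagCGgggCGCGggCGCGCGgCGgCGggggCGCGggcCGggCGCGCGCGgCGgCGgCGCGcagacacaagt
NR6A1: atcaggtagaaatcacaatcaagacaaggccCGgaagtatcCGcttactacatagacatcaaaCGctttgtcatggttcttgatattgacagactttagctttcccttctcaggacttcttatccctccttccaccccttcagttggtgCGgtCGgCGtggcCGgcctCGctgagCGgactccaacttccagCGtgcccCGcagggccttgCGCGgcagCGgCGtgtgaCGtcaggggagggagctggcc
NR5A1: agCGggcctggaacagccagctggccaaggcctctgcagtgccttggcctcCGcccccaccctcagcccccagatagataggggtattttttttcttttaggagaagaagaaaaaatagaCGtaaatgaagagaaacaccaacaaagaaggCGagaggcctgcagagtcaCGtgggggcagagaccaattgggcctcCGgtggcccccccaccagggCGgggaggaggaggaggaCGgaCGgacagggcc

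The HNF4A window, chr20:44355449-44355698 on the plus strand, holds 8 CpG, or 0.38 of the expected number. It lies at the upstream end of the gene, and HNF4A is known to have a further promoter downstream, so the window need not be the start these cells used. The NR5A2 window, chr1:200027460-200027709 on the plus strand, holds 0 CpG. The RXRA window, chr9:134326205-134326454 on the plus strand, holds 59 CpG, or 1.22 of the expected number. The NR6A1 window, chr9:124771312-124771561 on the minus strand, holds 16 (0.80 of expected), and the NR5A1 window, chr9:124507400-124507649 on the minus strand, holds 9 (0.41). Floor genes included CpG-rich windows as well, such as RXRG at 1.00 of expected.

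Both strands of the same windows were searched for 3 motifs. AGGTCA, the element that most receptors of subfamilies NR1 and NR2 bind, was present in 7 of 40 receptor windows (17.5%), beside 9.96% of 14982 protein-coding windows. The 7 were RARA, NR1H3, NR5A2, PPARG, RXRG, NR1H4 and NR0B1. Of them 3 were detected, as were 22 of all 40 receptors with a window. The motif stood in 13.6% of detected and 22.2% of other receptor windows, beside 8.30% and 12.7% of detected and other protein-coding windows. TATAAA was present in 3 receptor windows (7.50%, beside 9.01%), those of NR5A2, ESRRB and NR0B1. GGGCGG, a GC box, was present in 22 (55.0%, beside 57.2%), among them HNF4A and RXRA. A match is a description of letters and not of a bound site.

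**Figure D5:**
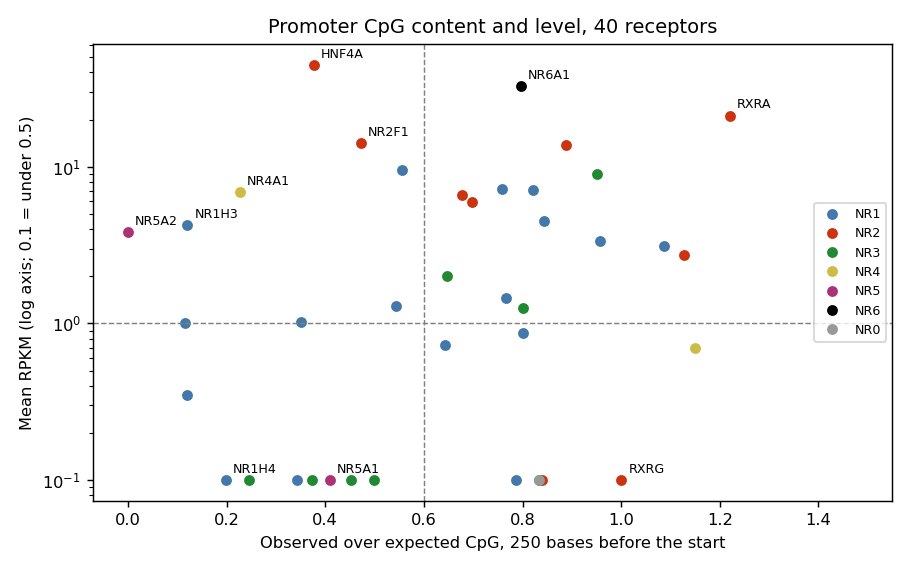
Mean RPKM on a log axis against observed over expected CpG in the 250 bases before the start site, for 40 receptors coloured by subfamily; dashed lines mark 0.6 and the detection limit of 1 RPKM. HNF4A (0.38), NR2F1 (0.47) and NR5A2 (0) are detected with low CpG content, and floor genes spread from 0.20 for NR1H4 to 1.00 for RXRG.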

How the data were processed

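Strand-specific libraries were made from poly(A) RNA selected from 2 µg of total RNA, per the labels' protocols. The deposited table gives 1 RPKM value per gene and library, which the authors had scaled to gene length and library size. Cufflinks 2.2.0, STAR 2.3.0e and FastQC 0.10.1 are listed in the submitters' processing notes with no role, and the series text names Sailfish and hg19. Not given in the sources used here are the tool that gave the RPKM, the annotation release and the use of strand. Replicates were not pooled. No value lay between 0.1 and 0.5.

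Identifiers were joined without version to GENCODE 44 on GRCh37, and 54428 of 57158 (95.2%) matched. Each of 19344 protein-coding symbols took its highest identifier. Read numbers came from single-exon genes, whose values gave whole reads within 0.02 for 82.6% and 82.7% of those with few reads. Genes with several exons gave no whole reads, so no count model was used. Where 1 library was at the floor, 0.1 entered the mean.

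The members and the 35 gene lists (431 symbols, 424 matched) were chosen with earlier results of these data known. All members are named, and from each list up to 4 highest and 3 lowest genes, with other genes for their known role. Some listed genes that the rule would name are not reported here. Genes overlapping members were taken from the annotation. With 1 group, no test between conditions was made. Python 3.11.15, pandas 2.3.3, numpy 2.4.6 and matplotlib 3.10.9 were used. Whether separate cultures gave the libraries is not in the labels. Poly(A) selection and PCR without molecular identifiers make counting error a lower limit of technical error.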

Additional observations from a re-analysis of the deposited data

How the results depend on the processing

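The number of detected receptors was 25 and became 13 at a limit of 5 RPKM (28.9% of receptors, beside 35.4% of protein-coding genes), since it then counts higher levels only. It was 30 at a limit of 0.5 RPKM (66.7%, beside 65.1% of protein-coding genes). Rescaling each library to a sum of 1000000 RPKM multiplied its values by 2.62. A limit of 1 then fell between the deposited 0.1 and 0.5, where no value lay. The 30 receptors (66.7%, beside 65.1%) counted after rescaling were thus those of the 0.5 RPKM limit, and not a separate check. The receptors' share was the higher at that limit and the lower at deposited limits of 1, 5 and 10 RPKM. The count was 25 with identifiers of a symbol summed. It was 27 by the mean of both libraries, an alternative chosen after seeing the data. Leaving out either library gave 26. The median receptor level of 1.30 on the log2(RPKM + 1) scale was 0.64 with a pseudocount of 0.1, 2.28 without receptors under 0.5 RPKM in both libraries, and 2.27 after rescaling. The same settings gave 1.34, 2.75 and 2.88 for protein-coding genes, beside 1.78, so the receptor median stayed the lower under each of these settings. Rescaling shifted the median of all protein-coding genes by 1.10 log2. Leaving out a library gave 1.26 to 1.33. The 5 highest receptors held 60.7% of receptor RPKM, 61.0% with floor values at 0, 59.4% with them at 0.5, and 60.4% to 61.0% with a library left out. Ordered by RPKM times exon length, which is not per length, HNF4A came first and 11 neighbouring pairs overlapped in place of 9. No paired analysis was possible because both libraries belong to 1 group. RPKM under 0.5 cannot be told from 0 here, so a receptor at the floor may still be transcribed.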

Other observations

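Noncoding genes that overlap receptor genes were mostly at the floor. The share of all noncoding genes at the floor is not given here, so this is no trait of the receptor genes. NR2F1-AS1 and NR2F2-AS1, antisense to COUP-TF genes that stood at 14.2 and 13.7 RPKM, were at the floor, and so were THRB-AS1, RORA-AS1 and RORB-AS1. HNF4A-AS1 stood at 1.47 RPKM in library 1 and 1.71 in library 2. NR4A1AS stood at 0.74 and 0.66 RPKM, and RARA-AS1 at 0.54 in library 1 and at the floor in library 2. FGD5-AS1, which shares 155 bp of exon with NR2C2, stood higher than that receptor, at 13.3 and 12.9 RPKM. Exons of 19 receptors overlapped exons of another gene, and for 8 of them that gene had a mean of 1 RPKM or more. The same counts over all protein-coding genes are not given here.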
